A study of Danio rerio with 12 samples.

Results

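Genes for enzymes that process drugs, other foreign chemicals, alcohols and aldehydes were followed in zebrafish embryos kept in morphine. They were taken by gene symbol from the array annotation: cytochrome P450s (cyp), aldehyde dehydrogenases (aldh), alcohol dehydrogenases (adh), glutathione transferases (gst), UDP-glucuronosyltransferases (ugt), sulfotransferases (sult), aldo-keto reductases (akr), carbonyl reductases (cbr), epoxide hydrolases (ephx) and flavin monooxygenases (fmo). The P450s and aldehyde dehydrogenases that make or break down retinoic acid were left out, which removed 8 probe sets. The choice gave 82 of the 8793 genes that have a probe set of their own, measured by 102 of the 15502 probe sets tested. The symbol por was also sought, but is not among the 82.

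The exposed embryos were wild-type AB zebrafish exposed continuously to 10 nM morphine, dissolved in the E3 embryo medium, from 5 hours post fertilization (hpf), the end of blastula. The control embryos were wild-type AB zebrafish with no treatment. Both groups were collected at 24 hpf and had 6 biological replicates each, every one a pool of about 100 whole embryos hybridized to 1 Affymetrix Zebrafish Genome Array. Since RNA came from pooled whole embryos, fewer cells of a type and less RNA per cell cannot be told apart in any value given here.

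These enzymes act in phases. P450s and flavin monooxygenases add oxygen to a molecule, dehydrogenases and reductases interconvert alcohols, aldehydes and ketones, and transferases then attach glutathione, glucuronic acid or sulfate so that the product can be excreted. Not all members serve this defence: many P450s build or break down cholesterol, steroid hormones, bile acids and vitamin D, and some aldehyde dehydrogenases belong to amino acid metabolism. In fish the liver and gut carry much of the xenobiotic metabolism, and in the embryo the yolk syncytial layer, the cell layer that feeds yolk to the embryo, expresses many liver genes.

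Signals are log2 values made with RMA, and differences are morphine minus control on that scale. A signal cannot be compared between probe sets, because probes bind with different strength. A probe set was called where limma gave an adjusted p under 0.10 over all 15502 probe sets. Array medians lay between 5.81 and 5.86, correlations between arrays were 0.990 to 0.999, and the number of arrays limits the precision. The median probe set SD within a group was 0.123 with morphine and 0.101 in controls, and over the 102 enzyme probe sets it was 0.124 with morphine and 0.105 in controls. Some markers of whole embryos were strong in both groups. Medians were 13.07 with morphine and 13.10 in controls for the globin hbae3. They were 13.70 with morphine and 13.66 in controls for the skin keratin krt4. Others had low signals, such as gata1a of blood, with medians of 5.44 with morphine and 5.40 in controls. For tyr of pigment cells they were 4.79 with morphine and 4.73 in controls. The actin 3′ minus 5′ difference is a sign of RNA quality, and a larger value means more 3′ bias. It was lowest on morphine array 1 and control arrays 1 and 2, at 2.95, 3.09 and 3.13, against 3.47 to 4.58 on the other arrays. These 3 arrays thus had the least 3′ bias.

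Of the 102 enzyme probe sets, 12 were called, or 11.8%, against 6.85% of all probe sets. With morphine 6 of them were higher, or 5.88%, against 3.13% of all probe sets, and 6 were lower, or 5.88%, against 3.72% of all probe sets. In 6 of the 102, again 5.88%, the groups had no overlap, against 3.61% of all probe sets. The members were chosen with earlier results of these data known. That choice may have raised these shares and those of the families and brightness groups given below. All 102 differences lay between -0.58 and 0.62. The median difference over the 102 was 0.00, against 0.01 over all probe sets, and 53 lay above 0 and 49 below. The number of increases fell to 3 without control array 2, 3 or 4 or without morphine array 6, and the number of decreases fell to 3 without morphine array 2. With the replicate number as a block there were 5 increases and 10 decreases. Together they were 14.7% of the 102, against 9.98% of all probe sets with the block.

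The increases and decreases lay in different families. All 6 increases were among 27 probe sets grouped as P450s for steroids, sterols, bile acids and vitamin D. They were 22.2% of the 27, against 3.13% of all probe sets called higher, a share that the choice of members may have raised. None of the 27 was lowered, against 3.72% of all probe sets, 20 lay above 0 and the median was 0.05. The 6 were 2 probe sets each of cyp51 and cyp27a1.4 and 1 each of cyp11a1.1 and cyp24a1, so that some genes count more than once. The 27 also hold cyp27c1, an enzyme of vitamin A, and cyp20a1, whose substrate is not known. cyp2r1, which activates vitamin D, was counted with cyp2 and was not called at -0.03. Among the 34 probe sets of the cyp1, cyp2 and cyp3 families, which hold most drug-metabolizing P450s, none was raised and 1 was lowered. That is 2.94%, near the 3.72% of all probe sets. The median was 0.01, and with the replicate number as a block 3 were lowered. Among the 39 probe sets that are not P450s, none was raised and 5 were lowered, or 12.8%, against 3.72% of all probe sets. With the replicate number as a block 7 were lowered. Of the 39, 27 lay below 0, against 46.2% of all probe sets, and the median was -0.09. Whether these families differ from each other was not tested. They also differ in signal level, as given below with the grouping by brightness.

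**Figure D1:**
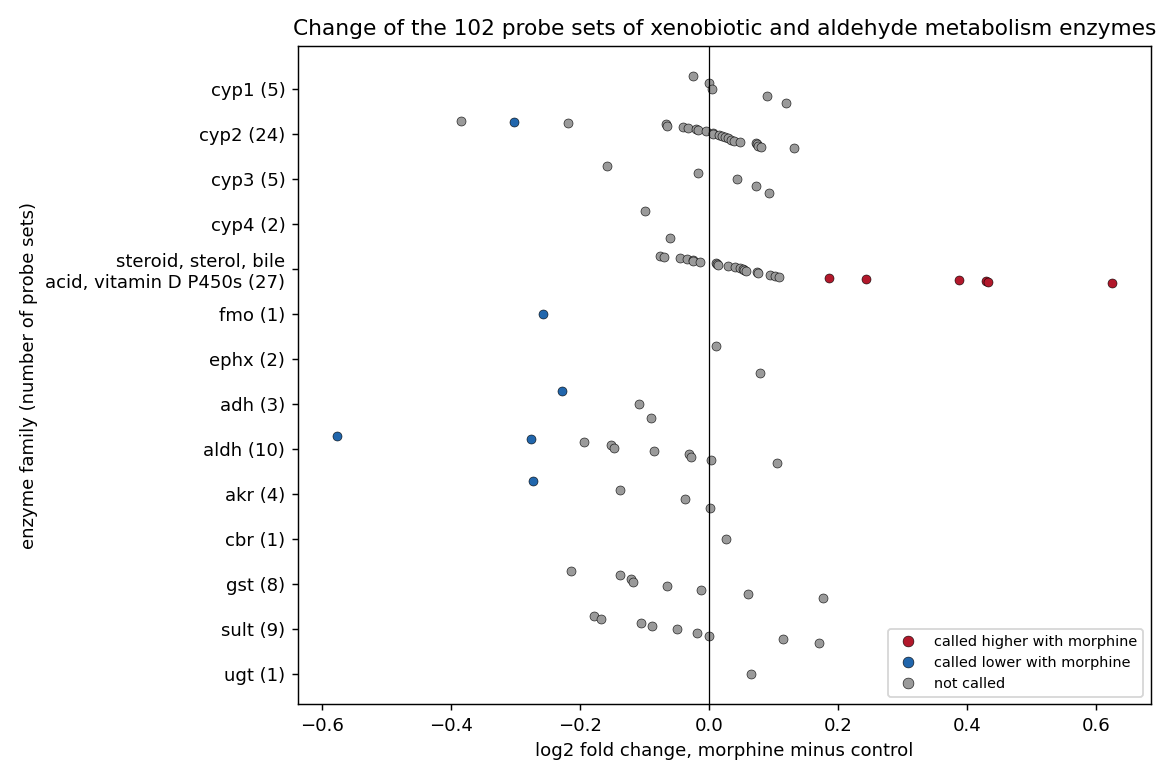
Difference of each of the 102 enzyme probe sets (horizontal axis, log2 fold change, morphine minus control) by family (rows, with the number of probe sets). Red points were called higher and blue points lower with morphine at an adjusted p under 0.10 in limma; the 6 red points all lie in the row of steroid, sterol, bile acid and vitamin D P450s, and the 6 blue points in the cyp2, fmo, adh, aldh and akr rows.

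The largest increase of the 102 was on 1 of the 4 probe sets of cyp51, the P450 that removes a methyl group from lanosterol on the way to cholesterol. Its signals were 4.51 to 5.03 with a median of 4.83 with morphine and 4.00 to 4.39 with a median of 4.14 in controls. The groups did not overlap. The mean was 4.78 ± 0.19 with morphine and 4.16 ± 0.14 in controls (SD, n = 6 each), a difference of 0.62 (SE 0.09) or 1.54-fold, with an adjusted p of 0.000412 in limma. This probe set was dim, at 5 or more on only 1 array.

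The second cyp51 probe set was designed on the same target sequence, and its suffix, _x_at, marks probes that may also bind other sequences. It lay between 4.62 and 5.36 with a median of 5.17 with morphine and between 4.34 and 5.02 with a median of 4.66 in controls. The groups overlapped, and the difference of 0.39 (SE 0.12) had an adjusted p of 0.0921 in limma, which reached 0.168 with 1 array left out and stayed under 0.10 only without control array 6 or morphine array 4. The third and the fourth, designed on another target, were not called in limma, at 0.01 and 0.05 with adjusted p of 0.951 and 0.73. The difference of the first exceeded theirs by 0.61 (95% interval 0.32 to 0.90) and 0.57 (0.29 to 0.85). Among the 27 pairs of probe sets of 1 gene, these were the only ones with an adjusted p under 0.10 in the two-sided exact permutation test, with p of 0.00433 and 0.00216, adjusted 0.0585 and 0.0583, where 0.00216 is the smallest p that 6 against 6 arrays allow.

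The gene cyp11a1.1 encodes the mitochondrial side-chain cleavage P450 that turns cholesterol into pregnenolone, the first step of steroid hormone synthesis. Its probe set gave 5.93 to 6.19 with a median of 6.02 with morphine and 5.50 to 5.71 with a median of 5.62 in controls, so that every morphine array was above every control array. The increase was 0.43 (SE 0.06) or 1.35-fold, with an adjusted p of 0.000311 in limma. Of the other P450s of steroid synthesis, cyp17a1, cyp11c1, cyp19a1a and cyp19a1b were measured here, and none was called. The paper lists cyp17a2 among its up-regulated genes from the same arrays. The annotation used here gave no probe set to cyp17a2, and the one used by the paper was not looked up. cyp17a1, which makes precursors of sex steroids and cortisol, differed by 0.05 on its brighter probe set and by -0.01 on its dim one. cyp11c1, which completes cortisol and fish androgens, differed by -0.03. The aromatases cyp19a1a and cyp19a1b, which turn androgens into estrogens in ovary and brain, lay between -0.05 and 0.07 on 4 probe sets. All 4 were dim on every array, so that small changes may go undetected.

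The cyp27 genes had 5 probe sets, 2 of them called higher, and both belong to cyp27a1.4. In mammals CYP27A1 is a mitochondrial enzyme that hydroxylates the side chain of sterols in bile acid synthesis. The brighter probe set of cyp27a1.4 lay between 5.54 and 5.80 with a median of 5.70 with morphine and between 5.01 and 5.44 with a median of 5.22 in controls, with no overlap. The mean was 5.68 ± 0.12 with morphine and 5.25 ± 0.17 in controls (SD, n = 6 each), a difference of 0.43 (SE 0.08) or 1.35-fold, with an adjusted p of 0.0032 in limma.

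The other probe set of cyp27a1.4 was dim on all arrays. It gave 3.67 to 4.03 with a median of 3.77 with morphine and 3.47 to 3.72 with a median of 3.56 in controls, and 4 of 6 morphine arrays were above all controls. The difference was 0.24 (SE 0.07) with an adjusted p of 0.0676 in limma, which rose as far as 0.128 with 1 array left out and missed the threshold without control array 1, 2, 3, 4 or 6 or without morphine array 3 or 6. The 2 probe sets differed in their change by 0.19 (95% interval -0.08 to 0.45, exact permutation p = 0.145, adjusted 0.489 over 27 pairs).

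None of the other 3 cyp27 probe sets was called, and in each the groups overlapped. cyp27a1.1, which has 2 protein-coding genes between it and cyp27a1.4 in the current RefSeq annotation, gave 3.40 to 3.62 with a median of 3.59 with morphine and 3.45 to 3.61 with a median of 3.54 in controls. Its difference was 0.01 (95% interval -0.10 to 0.13), with an adjusted p of 0.946 in limma. cyp27a2 lay between 4.68 and 4.91 with a median of 4.83 with morphine and between 4.47 and 4.87 with a median of 4.72 in controls, a difference of 0.11 (-0.04 to 0.26) with an adjusted p of 0.485 in limma. cyp27c1, which in zebrafish converts vitamin A1 into vitamin A2, gave 5.40 to 5.85 with a median of 5.64 with morphine and 5.49 to 5.78 with a median of 5.74 in controls. This difference was -0.08 (-0.23 to 0.08), with an adjusted p of 0.676 in limma. Whether cyp27a1.4 changed more than its relatives was not tested.

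The last increase was in cyp24a1, the mitochondrial P450 that inactivates vitamin D. On 1 of its 2 probe sets the signal lay between 4.68 and 4.96 with a median of 4.85 with morphine and between 4.50 and 4.77 with a median of 4.67 in controls. In 5 of 6 morphine arrays the signal was above all controls, and the difference of 0.19 (SE 0.06) had an adjusted p of 0.092 in limma. The call was lost with the replicate number as a block (adjusted p = 0.12) and whenever 1 array was left out, up to 0.199, other than control array 1 or morphine array 3. The second probe set of cyp24a1 was not called at 0.08 with an adjusted p of 0.551 in limma. The bile acid enzymes cyp7a1b, a relative of the rate-limiting mammalian enzyme, and cyp8b1.1 and cyp8b1.3 were not called on 5 probe sets, at 0.01 to 0.10. All 5 were dim on every array, so that small changes may go undetected.

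**Figure D2:**
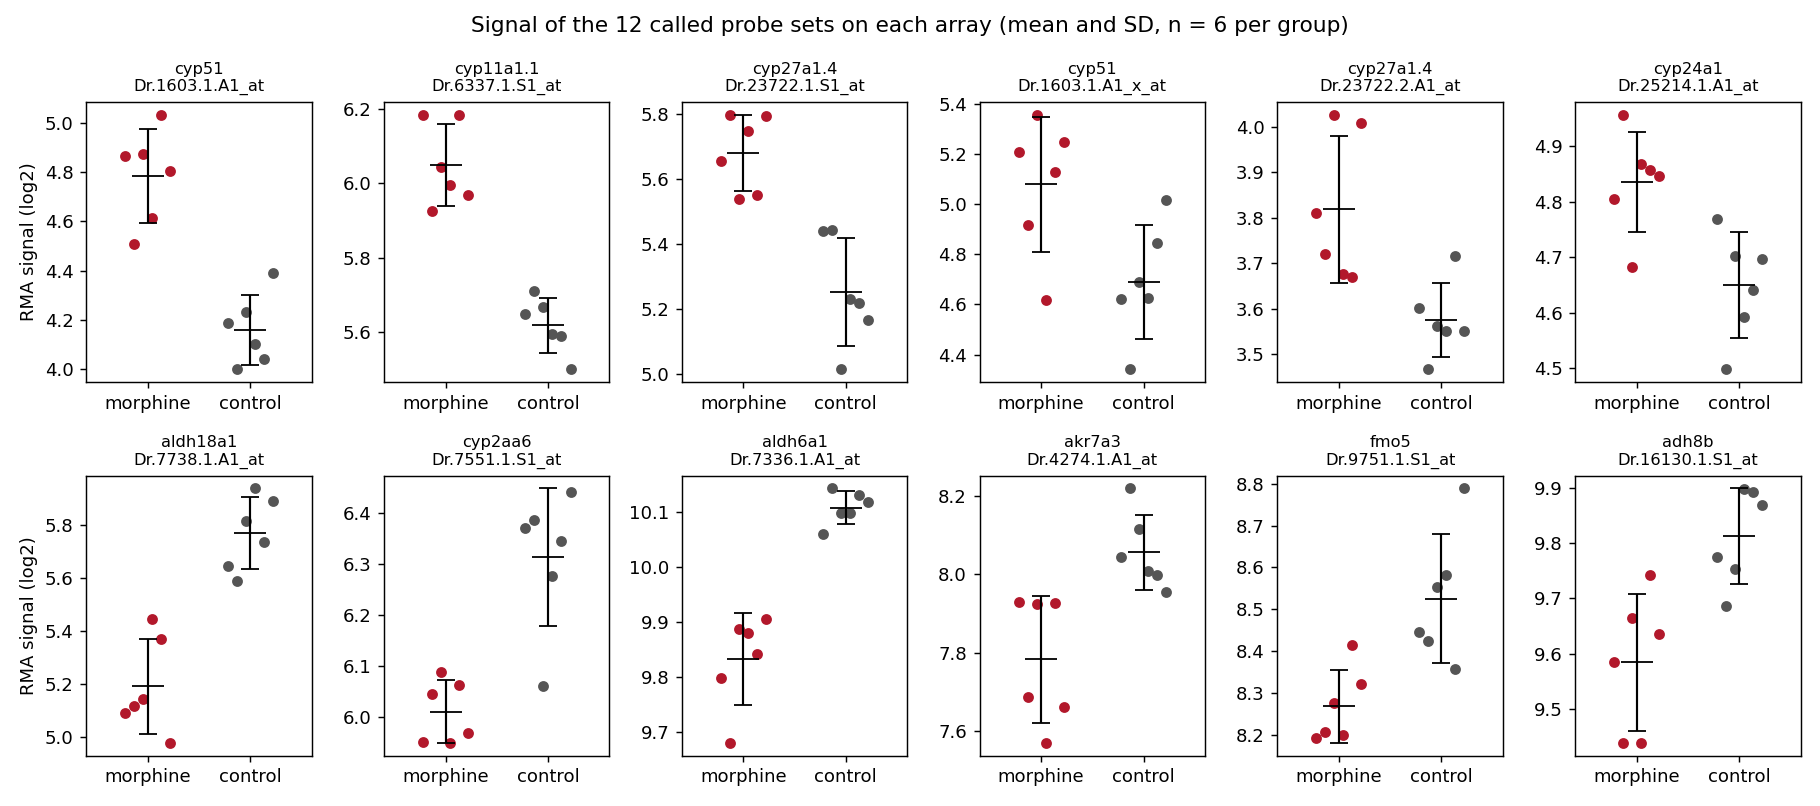
RMA signal (vertical axis, log2, a separate range in each panel) of the 12 called probe sets, 1 point per array, morphine left of control, with the mean and SD of 6 arrays. The upper row holds the 6 increases and the lower row the 6 decreases, and morphine and control points do not overlap for the first panel of cyp51, cyp11a1.1, the first panel of cyp27a1.4, aldh18a1, aldh6a1 and akr7a3.

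The largest decrease was in aldh18a1, which makes a precursor of proline from glutamate in mitochondria. Its signals were 4.98 to 5.45 with a median of 5.13 with morphine and 5.59 to 5.94 with a median of 5.78 in controls, with no overlap. The difference was -0.58 (SE 0.08), 1.49-fold lower with morphine, with an adjusted p of 0.000574 in limma. aldh4a1, which acts in the breakdown of proline, was not called at 0.11 with an adjusted p of 0.364 in limma.

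aldh6a1, a mitochondrial enzyme of valine breakdown, gave 9.68 to 9.91 with a median of 9.86 with morphine and 10.06 to 10.14 with a median of 10.11 in controls. The control arrays lay close together, all above every morphine array. The mean was 9.83 ± 0.08 with morphine and 10.11 ± 0.03 in controls (SD, n = 6 each), a difference of -0.28 (SE 0.05) or 1.21-fold lower, with an adjusted p of 0.00298 in limma. The 2 called aldehyde dehydrogenases are known for amino acid metabolism, and so are others that were not called. These include aldh4a1 and aldh7a1, the latter at -0.03 with an adjusted p of 0.846 in limma.

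Another 8 aldehyde dehydrogenases were not called, between -0.19 and 0.11, with 6 of the 8 below 0. aldh2.2, of the mitochondrial acetaldehyde dehydrogenase family, differed by -0.15, and aldh9a1a.1, whose mammalian relative oxidizes amino aldehydes, by 0.00 (95% interval -0.10 to 0.10). aldh3a2a, whose mammalian relative oxidizes fatty aldehydes, differed by -0.19 with an adjusted p of 0.136 in limma, and of 0.0953 with the replicate number as a block. Its groups overlapped, with 6.21 to 6.59 with morphine and 6.42 to 6.72 in controls.

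akr7a3, an aldo-keto reductase whose mammalian relatives reduce aflatoxin aldehyde, gave 7.57 to 7.93 with a median of 7.81 with morphine and 7.96 to 8.22 with a median of 8.03 in controls. The groups did not overlap, with the highest morphine array just under the lowest control array. The difference of -0.27 (SE 0.07), 1.21-fold lower, had an adjusted p of 0.0435 in limma, and of 0.101 without morphine array 2. The 3 other aldo-keto reductase probe sets were not called, with -0.04 and 0.00 for akr1a1b, an aldehyde reductase, and -0.14 for akr1b1.2.

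adh8b, an alcohol dehydrogenase of fish, lay between 9.44 and 9.74 with a median of 9.61 with morphine and between 9.69 and 9.90 with a median of 9.82 in controls. In 5 of 6 morphine arrays it was below all controls. The difference of -0.23 (SE 0.06), 1.17-fold lower, had an adjusted p of 0.0518 in limma, which reached 0.123 with 1 array left out and missed the threshold without control array 4, 5 or 6 or morphine array 2 or 4. Its chromosomal neighbour adh8a, at -0.11, and adh5, which oxidizes formaldehyde bound to glutathione, at -0.09, were not called.

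fmo5, the only flavin monooxygenase measured, gave 8.19 to 8.41 with a median of 8.24 with morphine and 8.36 to 8.79 with a median of 8.50 in controls. Again 5 of 6 morphine arrays were below all controls. The difference of -0.26 (SE 0.07), 1.19-fold lower, had an adjusted p of 0.0472 in limma, which reached 0.107 with 1 array left out and missed the threshold without control array 4 or morphine array 2 or 4.

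The remaining decrease was in the cyp2aa genes, P450s of fish that lie in a row of neighbouring genes and resemble each other, so that their probe sets may share signal. cyp2aa6 gave 5.95 to 6.09 with a median of 6.01 with morphine and 6.06 to 6.44 with a median of 6.36 in controls. The groups overlapped through 1 low control array, and 4 of 6 morphine arrays were below all controls. The difference was -0.30 (SE 0.06), 1.23-fold lower, with an adjusted p of 0.00875 in limma.

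Of the 6 cyp2aa probe sets, 5 lay below 0. cyp2aa4 had the larger difference but the wider spread, with 4.59 to 5.19 and a median of 4.94 with morphine and 5.07 to 5.70 and a median of 5.16 in controls. Its difference was -0.38 (SE 0.13) with an adjusted p of 0.109 in limma, of 0.0174 with the replicate number as a block, and under 0.10 without control array 6 or morphine array 1. It was also called lower by SAM, the method of the study, after repeated quantile normalization, with the dim filter and with the actin covariate, but not with the other variance model, array weights, centring, the shared-sequence probe sets left out or the 3 arrays of lowest actin difference left out. cyp2aa1, at 5.66 to 5.86 with a median of 5.72 with morphine and 5.81 to 6.26 with a median of 5.89 in controls, differed by -0.22 with an adjusted p of 0.138 in limma and of 0.077 with the block. cyp2aa3, cyp2aa9 and cyp2aa11 differed by -0.07, -0.02 and 0.01 and were not called. The 4 decreases gained with the block were aldh3a2a, cyp2aa1, cyp2aa4 and gstm.1.

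**Figure D3:**
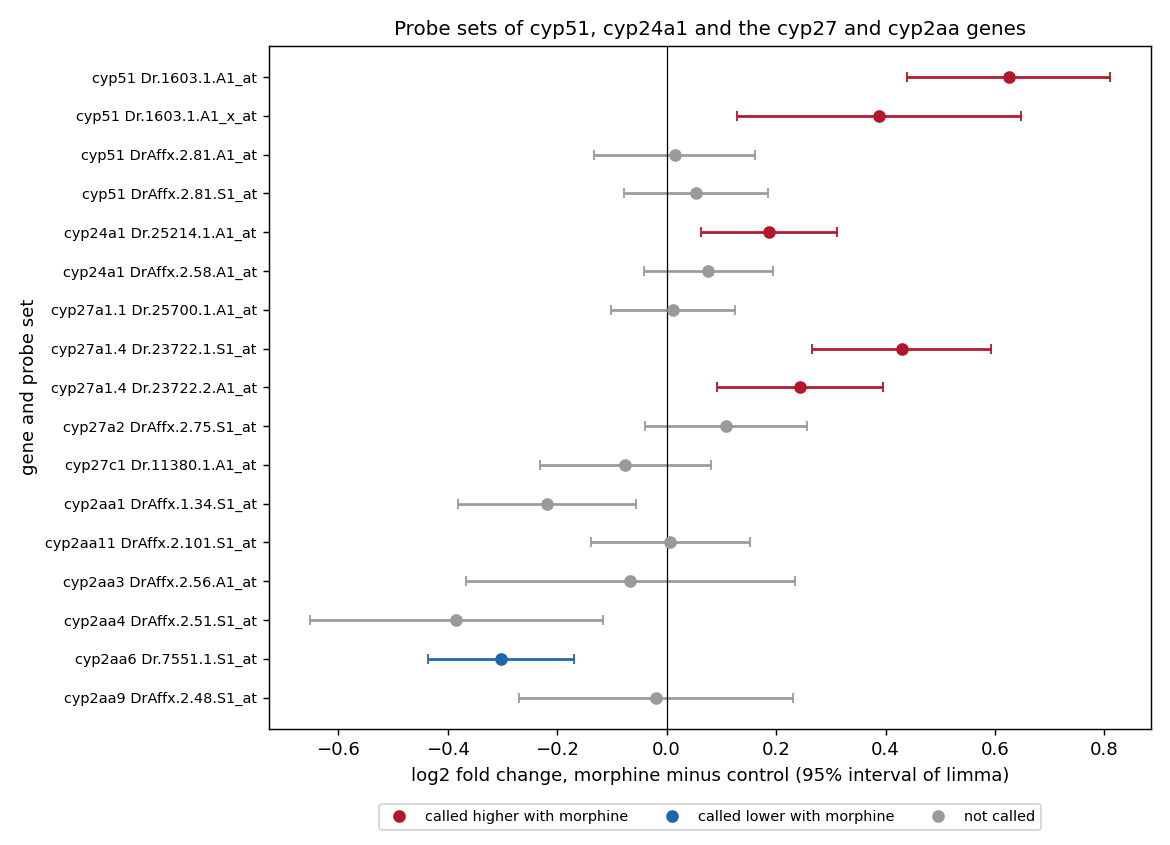
Difference (horizontal axis, log2 fold change, morphine minus control) of each probe set of cyp51, cyp24a1, the cyp27 genes and the cyp2aa genes, with the 95% interval from limma; red was called higher, blue lower and grey not called. Of the 4 cyp51 probe sets 2 were called, and of the 5 cyp27 probe sets only those of cyp27a1.4.

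Of the P450s best known for induction by foreign chemicals, those measured here were not called. cyp1b1 and cyp1c2 were also sought, but had no probe set among the 102. cyp1a, which the aryl hydrocarbon receptor turns on in the presence of dioxins, gave 6.63 to 7.00 with a median of 6.83 with morphine and 6.69 to 7.05 with a median of 6.82 in controls. Its difference was -0.02 (95% interval -0.19 to 0.14), with an adjusted p of 0.92 in limma. cyp1c1, another target of that receptor, differed by 0.09, 0.12 and 0.00 on 3 probe sets and cyp1d1 by 0.00. All of these but the one at 0.12 were dim. cyp3a65, the main zebrafish relative of the human drug-metabolizing CYP3A enzymes, differed by 0.04 and -0.16, and cyp3c1 by 0.09 and -0.02. Both cyp3a65 probe sets and the second of cyp3c1 were dim. Outside cyp2aa, the 18 cyp2 probe sets lay between -0.06 and 0.13.

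None of the 18 probe sets of conjugating enzymes among the 102 was called, against 6.85% of all probe sets. For 18 probe sets that share amounts to few calls. Of the 18, 12 lay below 0, with a median of -0.06. Among glutathione transferases, 6 of 8 lay below 0. gstm.1, of the mu class, gave 9.04 to 9.62 with a median of 9.39 with morphine and 9.52 to 9.66 with a median of 9.59 in controls. In 5 of 6 morphine arrays it was below all controls, and the difference of -0.21 had an adjusted p of 0.167 in limma and of 0.0978 with the replicate number as a block. gstp1.2, of the pi class, which zebrafish embryos raise under oxidative and electrophilic stress through Nrf2, gave 10.32 to 10.57 with a median of 10.45 with morphine and 10.21 to 10.52 with a median of 10.38 in controls. That difference was 0.06 (95% interval -0.07 to 0.20), with an adjusted p of 0.703 in limma.

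Glucuronidation is the main route of morphine clearance in humans, and the 1 glucuronosyltransferase probe set with a single gene, ugt2a1, was dim and was not called at 0.06 (95% interval -0.07 to 0.20, adjusted p = 0.669 in limma). Outside the 102, a probe set shared by ugt2a1, ugt2a4, ugt2a5 and ugt2a2 was called higher at 0.18. Another, shared by ugt1a1 and ugt1ab, was called lower at -0.25. Both are described in the closing sections. The 9 sulfotransferase probe sets lay between -0.18 for sult6b1 and 0.17 for the brain-enriched sult4a1, whose adjusted p in limma was 0.307. sult2st1, a steroid sulfotransferase of zebrafish, gave 9.21 to 9.83 with a median of 9.67 with morphine and 9.50 to 10.01 with a median of 9.59 in controls, a wide spread in both groups. Among the conjugating enzymes of the 102, the largest increase was 0.18 in gsto1, of the omega class, at 3.59 to 3.85 with morphine and 3.34 to 3.67 in controls, with an adjusted p of 0.177 in limma. The single carbonyl reductase probe set, cbr1l, and the 2 epoxide hydrolases ephx1 and ephx5 were not called, at 0.03, 0.01 and 0.08.

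**Figure D4:**
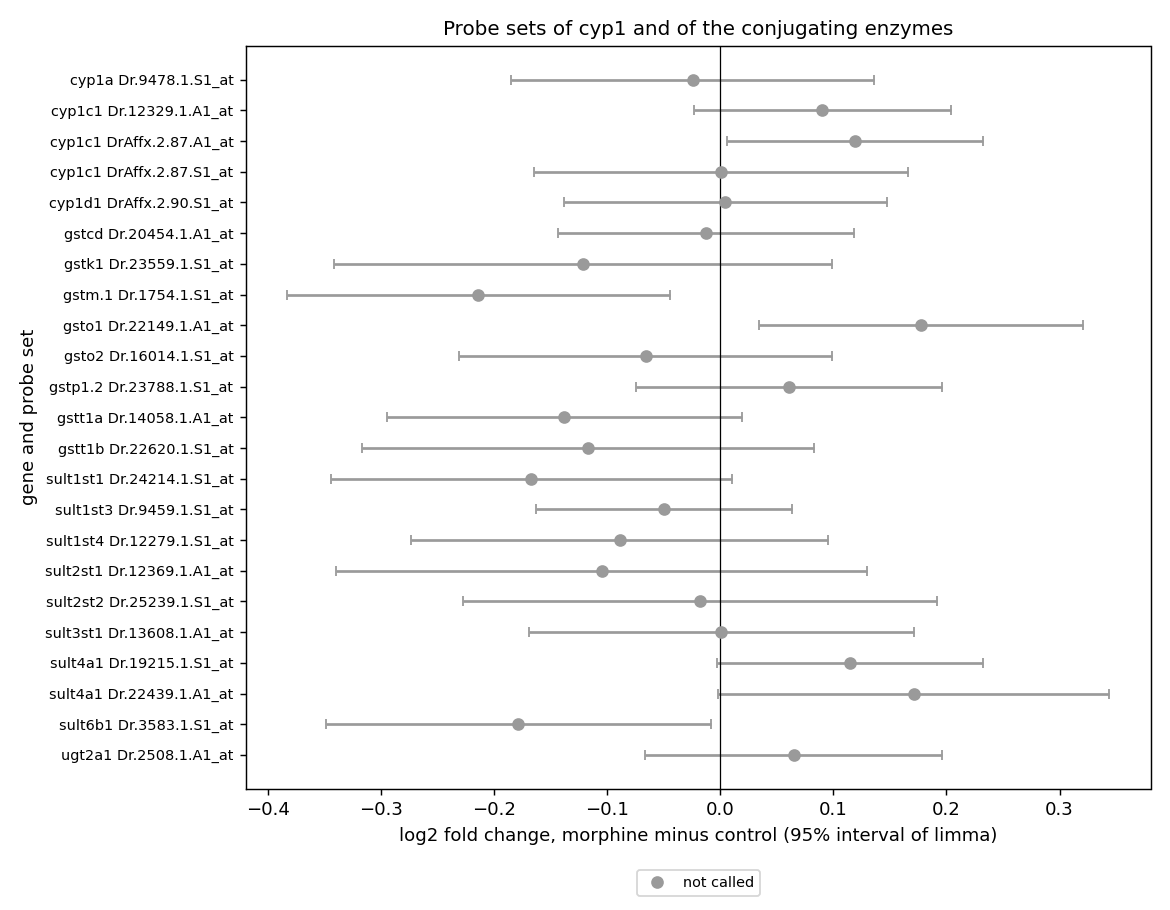
Difference (horizontal axis, log2 fold change, morphine minus control) of each probe set of the cyp1 P450s and of the glutathione, sulfate and glucuronic acid transferases, with the 95% interval from limma. None of these 23 probe sets was called, against 6.85% of all probe sets, and the differences lie between -0.21 and 0.18.

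The enzymes were also grouped by brightness. With a signal of at least 5 on at least 6 arrays as the limit, 49 of the 102 probe sets were bright, or 48.0%, against 62.2% of all probe sets. Among the 49, 2 were called higher and 6 lower, or 4.08% and 12.2%, against 3.92% and 5.19% of all bright probe sets, and 69.4% lay below 0, against 51.8% of all bright ones. Among the 53 dim ones, 4 were called higher and none lower, or 7.55% and 0%, against 1.82% and 1.31% of all dim probe sets, and 71.7% lay above 0, against 62.9% of all dim ones. The dim increases were both called cyp51 probe sets, the dimmer probe set of cyp27a1.4 and the called probe set of cyp24a1. All the decreases were in bright probe sets. Of the 27 probe sets of P450s for steroids, sterols, bile acids and vitamin D, 19 were dim, against 8 of the 39 that are not P450s. Of the 34 of the cyp1, cyp2 and cyp3 families, 24 were dim. The families thus differ in signal level, and the part of signal level in these directions was not tested.

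A list of partner genes of these enzymes and of further enzymes held 104 genes, of which 41 were measured by 51 probe sets. Of the 51, 2 were called higher and 5 lower, or 3.92% and 9.8%, against 3.13% and 3.72% of all probe sets. Their median was -0.02. The partners proper, which are receptors, the Nrf2 pathway, electron donors, suppliers of glutathione and cosubstrates, and efflux pumps, had 2 calls among 41 probe sets, or 4.88%, against 6.85% of all probe sets. Both were decreases. The other 5 calls were among the 10 probe sets of further enzymes. The xenobiotic receptors and their partners had no call among 10 probe sets, against 6.85% of all probe sets. ahr2, the main receptor for dioxins in zebrafish, was at 0.19 with an adjusted p of 0.124 in limma. fdx1 is a ferredoxin, a protein that passes electrons to mitochondrial P450s such as cyp11a1.1 and the cyp27 enzymes. It gave 9.37 to 9.76 with a median of 9.52 with morphine and 9.43 to 9.69 with a median of 9.52 in controls. It was not called, with an adjusted p of 0.917 in limma. Its relative fdx1b, also on the list, had no probe set of its own and could not be checked. cyb5b, an outer mitochondrial membrane cytochrome b5, lay between 6.34 and 7.31 with a median of 6.76 with morphine and between 6.99 and 7.63 with a median of 7.19 in controls. Its groups overlapped, and the difference of -0.51 had an adjusted p of 0.0618 in limma.

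Among the further enzymes, the smallest adjusted p was that of mgst3a, a membrane-bound glutathione transferase. It gave 9.71 to 9.83 with a median of 9.78 with morphine and 10.12 to 10.29 with a median of 10.14 in controls, with no overlap, a difference of -0.41 and an adjusted p of 9.52e-05 in limma. hnmt, which inactivates histamine by methylation, had the largest increase, with 5.86 to 6.70 and a median of 6.21 with morphine and 4.97 to 5.60 and a median of 5.33 in controls. Those groups did not overlap, and the difference was 0.87 with an adjusted p of 0.000639 in limma. Among the hydroxysteroid dehydrogenases, hsd3b2 was raised by 0.25, hsd3b7, an enzyme of bile acid synthesis in mammals, changed by -0.26 and hsd17b10, which also acts in isoleucine breakdown, by -0.26, with adjusted p of 0.0547, 0.0351 and 0.055 in limma. The other decrease among the partners proper was on 1 of the 3 probe sets of the peroxidase prdx1, at -0.27 with an adjusted p of 0.0439 in limma. Its other 2 probe sets were not called, at -0.10 and -0.13 with adjusted p of 0.496 and 0.582 in limma. The Nrf2 target nqo1 was not called at -0.09.

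Markers of liver and yolk syncytial layer moved in the same arrays. Of 49 listed genes, 35 were measured by 40 probe sets, of which 3 were called higher and 16 lower, with a median of -0.10. The share called was 47.5%, against 6.85% of all probe sets. The list was chosen with earlier results of these data known, and that choice may have raised this share. The summed linear signal of the list was 81860 to 86960 with morphine and 87650 to 90900 in controls, with no overlap. Since probe sets differ in scale, the brightest of them, such as apoa1a and apoa2, weigh most in this sum. It describes this list only and was not set against other probe sets. Among the decreases were fah and dao.1, enzymes of tyrosine and D-amino acid breakdown, at -1.17 and -0.96, the fibrinogen chain fgg at -0.49 and the retinol carrier rbp4 at -0.43. The 3 increases were apoea at 0.56, fetub at 0.52 and plg at 0.33, the last on 1 of its 2 probe sets. fabp10a, a defining marker of hepatocytes, was dim and not called, at medians of 3.98 with morphine and 4.00 in controls, while the yolk syncytial and liver apolipoprotein apoa1a was strong and not called, at medians of 13.78 with morphine and 13.81 in controls. The part of these markers in the enzyme changes was not tested. Of the other marker lists, muscle had 1 increase and 2 decreases among 12 probe sets, notochord and epidermis 1 increase among 5, pigment cells 1 decrease among 3, and neurons and blood no call among 7 and 4. Each of these lists is too short for its share of calls to be set against that of all probe sets.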

How the data were processed

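Per the labels and the study's methods, total RNA of pooled embryos was biotin-labelled and hybridized to 12 Affymetrix arrays. The authors made the deposited log2 signals with RMA in Bioconductor, which corrects background, applies quantile normalization and summarises probes; its version is not given in the sources used here. Quantile normalization removes shifts shared by most genes. Detection calls were not used. The 115 control probe sets of 15617 were left out. Names came from the platform annotation, and all 102 symbols stood unchanged in the current RefSeq table.

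The comparison used limma 3.58.1 (R 4.3.3), two-sided and without a block, with Benjamini-Hochberg adjustment over 15502 probe sets and the methods' false discovery rate of 0.10. Probe sets of 1 gene were compared by exact permutation of their differences per array, adjusted over 27 pairs. Deviations of same-numbered morphine and control arrays correlated at 0.23 to 0.47, all above the limit of 0.1 set for this check. Values for differently numbered arrays are not given here, and 3 of 12 arrays correlated best with their own number. Nothing in the sources says what a number stands for. Whether the numbers pair the arrays is thus not settled. The main fit and the permutations used no pairing, and the replicate block was an alternative. Alternatives were SAM, the replicate block, other variance models, array weights, centring, repeated quantile normalization, a dim filter, shared-sequence probe sets left out, an actin covariate, a threshold of 0.05 and each array left out. The steps were tested on simulated data. Figures used matplotlib 3.10.9 in Python 3.11.15.

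The members and lists were chosen with earlier results of these data known. Named were the called members, further probe sets of their genes, all cyp27 probe sets, the brightest member of each family, cyp1a and cyp1c1, and the largest uncalled changes. Other members and marker genes were named after their values were seen.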

Additional observations from a re-analysis of the deposited data

Results flagged for a closer look

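Among 37 named enzyme probe sets, giving 74 groups of 6 arrays, 4 arrays stood apart from the rest of their group, and chance alone gives about 1 in 20 such groups. For the sult4a1 probe set with the larger difference, morphine array 5 was at 4.94, with the other morphine arrays at 4.42 to 4.57. For ugt2a1, morphine array 2 was at 3.64, with the others at 3.31 to 3.41. For cbr1l, control array 2 was at 7.98, with the others at 7.73 to 7.82. For sult2st1, control array 6 was at 10.01, with the others at 9.50 to 9.68. None of these 4 probe sets was called.

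A probe set annotated to several glucuronosyltransferases at once (ugt2a1, ugt2a4, ugt2a5 and ugt2a2), and therefore not among the 102, was called higher with morphine. It gave 6.48 to 6.62 with a median of 6.58 with morphine and 6.32 to 6.55 with a median of 6.35 in controls. The groups overlapped, and the difference was 0.18 with an adjusted p of 0.0639 in limma.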

How the results depend on the processing

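Calls of cyp11a1.1, the brighter cyp27a1.4 probe set, aldh18a1, aldh6a1 and cyp2aa6 held under all 23 alternatives, and that of the cyp51 probe set with the largest increase under all but the dim filter, which does not test it. No difference of a named probe set changed sign among those called. The increases numbered 6 and became 3 after repeated quantile normalization, 2 under the dim filter, 3 at a threshold of 0.05 and 3 without the 3 arrays of lowest actin difference, an alternative chosen after seeing the data; with each array left out they numbered 3 to 5. The decreases numbered 6 and became 10 with the replicate block, and 3 to 9 with each array left out. Calls among partner genes and further enzymes numbered 7, 4 at a threshold of 0.05, and 5 to 8 with each array left out. All probe sets called ranged from 720 at a threshold of 0.05 to 1547 with the block, against 1062. The block changed no call of a named probe set other than cyp24a1, cyp2aa1, cyp2aa4, aldh3a2a and gstm.1. Where nothing else is given, the cause was not tested. With 6 arrays a group and 53 of 102 probe sets dim, small changes of dim genes may go undetected.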

Other observations

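Some enzyme probe sets are annotated to several genes and were not among the 102. One shared by the glucuronosyltransferases ugt1a1 and ugt1ab gave 4.87 to 5.27 with a median of 5.08 with morphine and 5.19 to 5.45 with a median of 5.33 in controls, a difference of -0.25 with an adjusted p of 0.0845 in limma. One annotated to both gstr and the transferrin gene tfa gave 13.13 to 13.26 with morphine and 13.33 to 13.49 in controls, with no overlap, a difference of -0.19 and an adjusted p of 0.0261 in limma. The signals of the genes within such a probe set cannot be told apart. Another gstr and tfa probe set was not called at -0.02, nor were a probe set shared by adh8b and adh8a at -0.01 and the 2 shared aldh2 probe sets at -0.19 and -0.14.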
